A study of Arabidopsis thaliana with 8 samples.

Results

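The 8 genes described here encode cytosolic heat shock chaperones of Arabidopsis thaliana. They are 4 genes of the HSP70 family (HSC70-1, HSC70-2, HSC70-3 and HSP70-4), 3 of the HSP90 family (HSP90.1, HSP90.2 and HSP90.3) and HSP101. They were picked by name and locus, not by a cut on a measured value, out of 27415 genes in the deposited tables. The choice was made with earlier results of these data known. The study measured steady-state mRNA and ribosome-protected mRNA in seedlings of the Columbia-0 ecotype that had grown for 4 days in darkness on Murashige and Skoog medium. The dark groups were collected without illumination and the light groups after 4 h of white light, and no other genotype or agent was used. Each of the 4 groups (dark mRNA, light mRNA, dark ribosome-protected mRNA and light ribosome-protected mRNA) held 2 libraries, called repeat 1 and repeat 2.

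Heat shock proteins of the HSP70 family bind exposed hydrophobic stretches of unfolded or newly made proteins in cycles of ATP hydrolysis, together with J-domain co-chaperones and nucleotide exchange factors. HSP90 is a dimer that takes over nearly folded clients such as kinases and receptors, often handed on from HSP70 by HOP adaptors, and HSP101 is a ring-shaped ATPase that pulls proteins out of aggregates and gives plants their acquired heat tolerance. The cytosolic families hold cognate members, expressed without stress, and heat-inducible ones. In plants HSP70-4, HSP90.1 and HSP101 are known for strong induction by heat, whereas HSC70-1, HSP90.2 and HSP90.3 are known for expression in most tissues. Their heat response runs through heat shock factors, which bind repeats of the short unit GAA and its complement in promoters. A dark-grown seedling moved into light opens its hook, stops elongating and builds chloroplasts, so that many proteins are made at the same time.

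The 2 kinds of library answer 2 questions. Steady-state mRNA libraries count fragments of purified mRNA. Ribosome-protected libraries count the pieces of mRNA that stayed inside ribosomes when polysome extracts were digested with RNase I, so that they follow the amount of translation. Coding-sequence (CDS) reads ran from 30997341 to 37245819 in the 4 mRNA libraries, and 4843438, 14974871, 4617343 and 40972194 in the ribosome-protected libraries of dark repeat 1, dark repeat 2, light repeat 1 and light repeat 2. Levels below are CDS reads in CPM (reads relative to the depth of the library, scaled for its composition by TMM) per kilobase of coding sequence, so that they can be compared between genes. The libraries were of whole seedlings, in which fewer cells of a type and less RNA per cell cannot be told apart. Root genes PIN2 and CASP1 and cotyledon gene LHCB1.3 had reads in all 8 libraries. Markers of tissue and light moved between the groups. PIN2 fell by 1.92 ± 0.32 (log2, SE) in mRNA (adjusted p = 0.0262) and by 2.22 ± 0.33 in ribosome-protected mRNA (0.0142), and CASP1 differed by -0.41 ± 0.24 (0.446) and -0.71 ± 0.25 (0.156). LHCB1.3 differed by 2.87 ± 1.02 in mRNA (0.192) and rose by 5.18 ± 1.14 in ribosome-protected mRNA (0.0462), and HY5, a light-induced regulator, rose by 1.70 ± 0.23 in mRNA (0.015). The part of tissue makeup in the changes of the 8 genes was not tested. The repeats differed from each other, for example in reads from plastid-encoded genes, which took 2.59% and 4.54% of CDS reads in dark and light mRNA of repeat 1 and 0.253% and 0.369% in repeat 2, so the light change within each repeat is given beside the fitted one. Nothing in the labels says that the repeats came from separate cultures, and the p-values measure the spread between these libraries.

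The 8 genes lie on chromosomes 1, 3 and 5 (coordinates and strands from the RefSeq annotation of TAIR10.1; the submitters' processing notes name build TAIR10 and the deposited tables give loci without coordinates). HSC70-1 (AT5G02500) lies at chr5:553745-556623 on the minus strand and HSC70-2 (AT5G02490) next to it at chr5:550035-552827 on the same strand. HSC70-3 (AT3G09440) lies at chr3:2902355-2905947 and HSP70-4 (AT3G12580) at chr3:3991117-3993886, both on the minus strand. All 4 HSP70 genes have 2 coding exons. HSP90.1 (AT5G52640) lies at chr5:21352557-21355147 on the plus strand, with 4 coding exons. HSP90.3 (AT5G56010) at chr5:22681238-22684252 and HSP90.2 (AT5G56030) at chr5:22686473-22689671 lie close together on the plus strand, beside HSP90.4 (AT5G56000), a further cytosolic copy at chr5:22677338-22680152 on the minus strand that is not among the 8. HSP101 (AT1G74310) lies at chr1:27936508-27940369 on the minus strand, with 5 coding exons.

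Coding sequences of these families are alike, and this bears on how well reads can be told apart. HSC70-1 and HSC70-2 were identical at 87.2% of aligned coding bases, HSC70-1 and HSC70-3 at 84.4%, and the 3 HSC70 genes and HSP70-4 at 79.3 to 79.7%. HSP90.2 and HSP90.3 were identical at 95.7%, against 79.2% and 79.4% for HSP90.1 with each of them. Of all windows of 28 bases in the coding sequence, about the length of a ribosome-protected fragment, 39.6% of those in HSP90.2 and 48.7% of those in HSP90.3 also occurred in the spliced RNA of another gene. The share was 5.08% for HSC70-1, 6.56% for HSC70-2, 2.50% for HSC70-3, 0.363% for HSP70-4, 0.193% for HSP90.1 and 1.14% for HSP101. How reads that map to several places were counted is not stated by any source used here. The split of reads between HSP90.2 and HSP90.3 is therefore uncertain, and sums over copies are given beside their own values. Of the 1935 windows of HSC70-2, 60 also occurred in the far more abundant HSC70-1. HSP70-18 (AT1G56410), which is not in the HSC70 sum, held 62 of them. The reads of HSC70-2 may be affected as well, which was not tested. A pair of runs shows what the families share. The first is the longest stretch of coding sequence common to HSC70-1 (chr5:555496-555536) and HSC70-2 (chr5:551743-551783), bases 475 to 515 of both, and the second is the longest one common to HSP90.2 (chr5:22687890-22688127) and HSP90.3 (chr5:22682368-22682605), which is 238 bases long and lies within a single exon of each.
HSC70-1 and HSC70-2: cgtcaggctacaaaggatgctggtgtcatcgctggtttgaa
HSP90.2 and HSP90.3: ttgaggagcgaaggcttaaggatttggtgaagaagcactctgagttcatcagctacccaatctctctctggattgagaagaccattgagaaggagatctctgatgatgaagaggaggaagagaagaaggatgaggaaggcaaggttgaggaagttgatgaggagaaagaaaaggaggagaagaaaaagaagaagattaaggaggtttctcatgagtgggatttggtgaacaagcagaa

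The heat shock element, the DNA unit that heat shock factors bind, was searched in the 500 bases before the start codon of each gene as GAANNTTCNNGAA or its complement TTCNNGAANNTTC, on both strands. It was found before 5 of the 8 genes, namely HSC70-1, HSC70-2, HSC70-3 (2 copies), HSP70-4 and HSP90.1, and not before HSP90.2, HSP90.3 or HSP101. Of 26708 windows of the same length before annotated genes, 327 (1.22%) held it. The 6 copies are printed on the strand on which each gene is read, 5′ to 3′, with the 13 bases of the element in capitals and 8 bases on either side.
HSC70-1, chr5:556554-556582, minus strand, 227 bases before the start codon: caaccatcGAACATTCTCGAAacatttta
HSC70-2, chr5:552686-552714, minus strand, 128 bases before: taattacaGAACATTCTGGAAactcaagt
HSC70-3, chr3:2905894-2905922, minus strand, 269 bases before: atcgaaccGAACATTCTCGAAccttttta
HSC70-3, chr3:2905765-2905793, minus strand, 140 bases before: gagccatcGAACCTTCTCGAAactcgagt
HSP70-4, chr3:3993846-3993874, minus strand, 164 bases before: ttactcgtGAACGTTCTCGAAagctcttt
HSP90.1, chr5:21352254-21352282, plus strand, 282 bases before: aacgaaaaGAACTTTCTGGAAttcgtttg
All 6 copies had the same letters at 11 of their 13 positions, GAACNTTCTNGAA. The search itself fixed GAA, TTC and GAA, so only the C after the first GAA and the T after TTC were free to differ. This form was seen only once the copies were lined up. It was present in 19 of the 26708 windows (0.0711%), which include those of the 5 genes whose copies defined it. Each copy lay further from the start codon than the length of the 5′ leader in the deposited gene model. RefSeq draws the 4 HSP70 genes further upstream than this leader length, and there their copies fall inside the annotated gene. The copy of HSP90.1 lies outside its annotated gene. The element was found before HSP70-4, whose mRNA changed most among the 8, and also before HSC70-1, whose mRNA did not pass the light test described below, while HSP101 passed and had none in this window. The distance for HSP90.1 is from the RefSeq start codon, whose coding sequence has 2103 bases against 2118 in the deposited model. Such a match is a description of letters and not of binding.

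**Figure D1:**
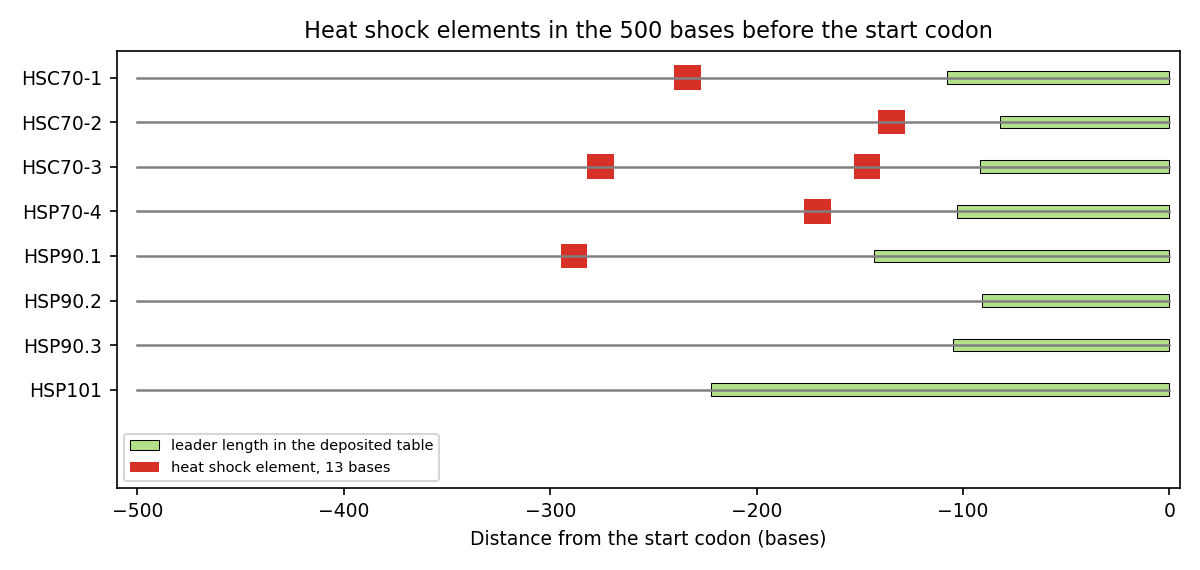
Positions of the heat shock element (red, 13 bases) in the 500 bases before the start codon of each of the 8 genes, with distance from the start codon in bases on the x axis and, in green, the length of the 5′ leader in the deposited gene model. The 6 copies lie 128 to 282 bases before the start codon of 5 genes, and the lines of HSP90.2, HSP90.3 and HSP101 hold none.

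In dark-grown seedlings the 8 mRNAs spanned levels from about 10 to about 1000. HSC70-1, the main cognate HSP70, stood first with 898 and 1109 in repeats 1 and 2, which placed its mean at rank 86 among all genes. HSC70-3, a second cognate HSP70, followed at 98.4 and 116. The HSP90 genes HSP90.3 (58.2 and 72.7) and HSP90.2 (43.4 and 71.0) and the HSP70 gene HSP70-4 (51.1 and 50.4) came next. These neighbours were not separated by the repeats, since the range of HSP90.2 overlapped that of HSP90.3 and held both values of HSP70-4. HSP90.1 (28.6 and 16.9), HSC70-2 (13.2 and 10.96) and HSP101 (9.57 and 10.2) were lowest, each below the one before it in both repeats, with HSP101 at rank 10703. The order of the 8 by mean level of ribosome-protected reads in the dark was the same, from HSC70-1 with 460 and 748 to HSP101 with 9.12 and 10.9.

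After 4 h of light HSP70-4 had moved to second place among the 8 in both kinds of library. Its mean mRNA level went from rank 3190 to rank 287 among all genes, while HSC70-1 went from rank 86 to rank 141. In ribosome-protected reads the level of HSP70-4 (718 and 736) lay within the range of HSC70-1 (621 and 1120). Expressed as a ratio of levels within a library, HSP70-4 to HSC70-1 was 0.0569 and 0.0454 in dark mRNA and 0.498 and 0.536 in light mRNA. The same ratio was 0.156 and 0.139 in dark ribosome-protected reads and 1.16 and 0.657 after light. In light mRNA HSP90.1 spanned the range of HSP90.2 and part of that of HSP90.3, and HSC70-2 and HSP101 overlapped at the low end. After light the ranges of HSC70-3, HSP90.3, HSP90.2 and HSP90.1 each overlapped that of the next in ribosome-protected reads, whereas HSC70-2 (32.6 and 57.9) and HSP101 (23.57 and 27.0) did not.

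**Figure D2:**
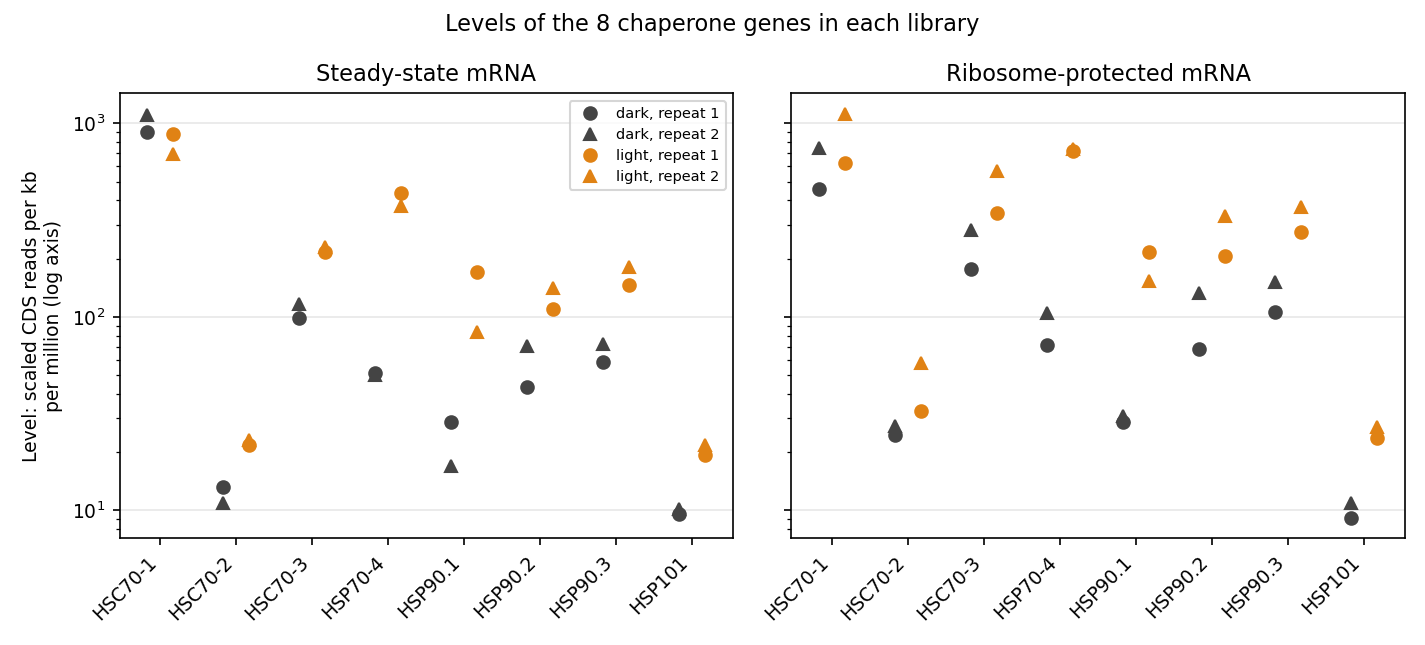
Level of each of the 8 genes in every library, as scaled CPM per kilobase on a log axis, in steady-state mRNA (left) and ribosome-protected mRNA (right); grey marks are dark libraries, orange marks light libraries, circles repeat 1 and triangles repeat 2. The light marks of HSP70-4 lie at 373 to 439 in mRNA, above its dark marks at 50.4 and 51.1, whereas the marks of HSC70-1 mRNA lie close together, at 898 and 1109 in the dark and 881 and 696 after light.

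The 8 genes together took 0.247% and 0.364% of all CDS reads in the 2 dark mRNA libraries and 0.407% and 0.395% in the light ones. In ribosome-protected reads they took 0.175% and 0.282% in the dark and 0.449% and 0.556% after light. The dark and light libraries did not overlap in either kind, and how often other sets of genes separate in this way was not counted. The 4 HSP70 genes held most of this, with 0.310% and 0.291% of light mRNA reads and 0.307% and 0.400% of light ribosome-protected reads. The 3 HSP90 genes held 0.0288% and 0.0434% of mRNA reads in the dark and 0.0924% and 0.0971% after light. These shares count reads and so weigh long genes more.

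The first comparison asked which of the 8 mRNAs changed after 4 h of light. HSP70-4, HSP90.1 and HSP101 rose, 0 fell, and the other 5 did not pass the test, which was edgeR's quasi-likelihood test over 19823 genes with a Benjamini-Hochberg adjusted p of 0.05 as threshold. Among all tested genes 3.34% were called higher and 1.44% lower. The median change of the 8 was 1.09 on the log2 scale, against 0.0146 for all tested genes, of which the middle 90% lay between -1.32 and 1.96. With the repeat as a block in the fit, 7 of the 8 passed as higher, all but HSC70-1, against 19.4% of all genes. DESeq2 called 4 higher, HSP90.3 in addition, against 6.64%. Leaving out dark mRNA repeat 1, dark mRNA repeat 2 or light mRNA repeat 2 left 0 calls among the 8, and these fits called 3, 57 and 100 genes in all, against 947 with every library. Leaving out any of the other 5 left 1, HSP70-4, with 173 to 661 genes called in all.

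Among the HSP70 genes, HSP70-4, which is known as strongly heat-induced, changed most. Its mRNA level was 51.1 and 50.4 in the dark and 439 and 373 after light, so both light libraries were far above both dark ones. The change was 3.001 ± 0.33 (log2, SE), or 8.01-fold (adjusted p = 0.00885), and it was 3.10 within repeat 1 and 2.89 within repeat 2. Its size lay between 2.88 and 3.09 under all 16 settings tried, while its adjusted p reached 0.0818, 0.0804 and 0.0542 without dark mRNA repeat 1, dark mRNA repeat 2 and light mRNA repeat 2, and 0.0853 when the 4 mRNA libraries were fitted alone. HSC70-3 had levels of 98.4 and 116 in the dark and 215 and 230 after light, without overlap. How many of all genes had groups without overlap was not counted. The HSC70-3 difference of 1.06 ± 0.38 did not pass (adjusted p = 0.202, 0.00622 with the block). HSC70-2, the low-abundance neighbour of HSC70-1, had 13.2 and 10.96 in the dark and 21.7 and 23.1 after light, again without overlap, a difference of 0.89 ± 0.30 (adjusted p = 0.173; 0.0204 with the block). HSC70-1 was the exception among the 8, with 898 and 1109 in the dark and 881 and 696 after light. Its light values were lower, but the difference of -0.35 ± 0.44 was smaller than its error (adjusted p = 0.772; 0.462 with the block) and was -0.03 in repeat 1 and -0.67 in repeat 2. Because HSC70-1 dominates the reads of the 3 HSC70 genes, their sum gave -0.12 ± 0.43 (adjusted p = 0.938).

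Among the HSP90 genes, HSP90.1, the heat-inducible form, changed most. Its mRNA level was 28.6 and 16.9 in the dark and 171 and 83.2 after light, so the repeats differed in level and agreed in direction. It rose by 2.48 ± 0.46, or 5.57-fold (adjusted p = 0.0363), with 2.58 within repeat 1 and 2.29 within repeat 2. The call was lost without any 1 of the 8 libraries, at adjusted p of 0.0685 to 0.169, with values of 1.87 (without light mRNA repeat 1) to 2.89 (without light mRNA repeat 2). The constitutive copies HSP90.2 (43.4 and 71.0 in the dark, 110 and 141 after light) and HSP90.3 (58.2 and 72.7, then 146 and 180) had light values above all dark values. The share of all genes with such a separation was not counted, and neither gene passed the test. HSP90.2 differed by 1.13 ± 0.46 (adjusted p = 0.253; 0.0023 with the block) and HSP90.3 by 1.32 ± 0.33 (adjusted p = 0.0846; 6.38e-04 with the block; 0.00512 in DESeq2). Summed with HSP90.4 to bypass the shared windows, they differed by 1.18 ± 0.39 (adjusted p = 0.164). The ratio of HSP90.1 to HSP90.3 levels was 0.491 and 0.233 in the dark and 1.17 and 0.462 after light, so the groups overlapped, although the ratio was higher after light within each repeat.

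HSP101, the disaggregating ATPase, was the least abundant of the 8. Its mRNA level was 9.57 and 10.2 in the dark and 19.3 and 21.7 after light, with little spread in either group. It rose by 1.05 ± 0.21, or 2.07-fold (adjusted p = 0.0411), and by 1.01 and 1.09 within the repeats. The call was near the threshold. It was lost with RLE size factors in place of TMM (0.0532) and with no filter on low counts (0.0508). Without any 1 library its adjusted p was 0.0669 to 0.283, while its value stayed between 0.93 and 1.14.

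The second comparison asked the same of ribosome-protected mRNA, from 4 other libraries. HSP70-4, HSP90.1 and HSP101 rose here as well, 0 fell and 5 did not pass, while 4.71% of all tested genes were called higher and 2.12% lower. The median of the 8 was 1.33, against -0.0317 for all tested genes. With the block 7 passed as higher, all but HSC70-1 (17.3% of all genes), and DESeq2 called 5, with HSP90.2 and HSP90.3 added (8.43% of all genes). Leaving out any mRNA library left the 3 calls in place. Without ribosome-protected dark repeat 1 there were 0 calls, and without dark repeat 2, light repeat 1 or light repeat 2 there was 1, HSP70-4. These 4 fits called 173 to 427 genes in all, against 1355 with every library.

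HSP70-4 had ribosome-protected levels of 71.9 and 104 in the dark and 718 and 736 after light, far apart. It rose by 3.04 ± 0.33, or 8.26-fold (adjusted p = 0.00622; 0.0552 without ribosome-protected dark repeat 1). HSP90.1 went from 28.5 and 30.6 to 216 and 152 and rose by 2.64 ± 0.47, or 6.22-fold (adjusted p = 0.0242). The adjusted p of HSP90.1 was 0.0894 to 0.144 without any 1 of the 4 ribosome-protected libraries. For HSP101 the levels were 9.12 and 10.9, then 23.57 and 27.0, and it rose by 1.33 ± 0.21, or 2.52-fold (adjusted p = 0.017; 0.0624 to 0.119 without any 1 of the 4). Counts behind the HSP101 values ran from 112 CDS reads in dark repeat 1 to 2497 in light repeat 2.

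For the other 5 genes repeat 2 was the higher of the pair in both dark and light ribosome-protected libraries. The same held for HSP70-4 and HSP101, and not for HSP90.1 after light. HSP90.2 (67.9 and 133 in the dark, 207 and 333 after light) differed by 1.43 ± 0.46 (adjusted p = 0.136) and HSP90.3 (106 and 151, then 274 and 368) by 1.32 ± 0.33 (adjusted p = 0.0681), both without overlap of the groups. Summed with HSP90.4 they differed by 1.31 ± 0.39 (adjusted p = 0.11). HSC70-3 (176 and 282, then 345 and 570) differed by 1.00 ± 0.38 (adjusted p = 0.195) and HSC70-2 (24.4 and 27.3, then 32.6 and 57.9) by 0.81 ± 0.30 (adjusted p = 0.185), also without overlap. The share of all genes without overlap was not counted here either. HSC70-1 had 460 and 748 in the dark and 621 and 1120 after light, so its groups overlapped. Its difference was 0.53 ± 0.44 (adjusted p = 0.573; 0.218 with the block), with 0.43 and 0.58 within the repeats. The sum of the 3 HSC70 genes gave 0.68 ± 0.44 (adjusted p = 0.448).

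**Figure D3:**
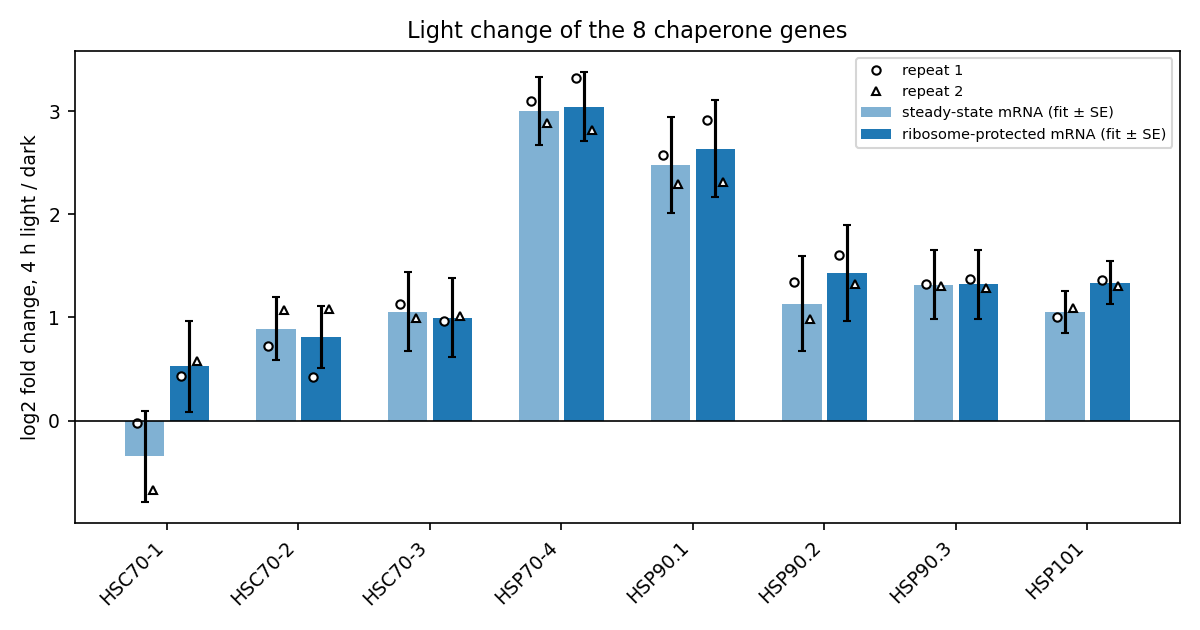
Log2 fold change after 4 h of light for each of the 8 genes, in steady-state mRNA (light blue bars) and ribosome-protected mRNA (dark blue bars), with the standard error of the fit as error bars and the change within repeat 1 (circles) and repeat 2 (triangles). HSP70-4 stands highest in both kinds (3.001 and 3.04), and HSC70-1 is the gene with a value below 0 in mRNA (-0.35).

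The third comparison asked whether light changed the amount of ribosome-protected mRNA per steady-state mRNA, the translational efficiency, tested as an interaction over all 8 libraries. Of the 8 genes 0 passed, 0 had an unadjusted p under 0.05, and DESeq2 and the fit with the block also called 0. Background was as low, with 0% of 19823 genes called by edgeR and 0.115% by DESeq2. HSC70-1 had the largest value, 0.87 ± 0.63 (unadjusted p = 0.207), with 0.46 within repeat 1 and 1.25 within repeat 2. The other 7 lay between -0.08 ± 0.43 (HSC70-2) and 0.29 ± 0.65 (HSP90.2). For HSP70-4, whose mRNA rose 8.01-fold, it was 0.04 ± 0.44, an error within which a change in either direction would not have been seen.

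The fourth comparison set ribosome-protected against steady-state mRNA within the dark and within the light libraries. These ratios use the same libraries as the light comparisons and are relative to the average gene. In the dark 0 of the 8 passed in edgeR, where 0.787% of all genes were called higher and 3.87% lower. After light 0 passed, with 0.101% called higher and 2.36% lower. With the block 5 passed as higher in the dark and 5 after light, in each case HSC70-2, HSC70-3, HSP70-4, HSP90.2 and HSP90.3, against 19.2% and 14.2% of all genes. DESeq2 called 4 and 3 as higher, against 5.11% and 2.19%. The median log2 ratio of the 8 was 0.80 in the dark and 0.91 after light, against 0.00783 and 0.0115 for all tested genes.

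The HSP70 family was not uniform in this ratio. HSC70-2 had 1.10 ± 0.30 in the dark and 1.02 ± 0.30 after light, HSC70-3 had 1.09 ± 0.38 and 1.04 ± 0.38, and HSP70-4 had 0.80 ± 0.31 and 0.84 ± 0.31. HSC70-1, the most abundant, had -0.73 ± 0.44 in the dark (adjusted p = 0.364) and 0.14 ± 0.44 after light (adjusted p = 0.9). It was the lowest of the 8 in the dark in both repeats. After light it was lowest in repeat 1 (-0.50) and not in repeat 2, where it had 0.69 against 0.31 for HSP101. HSP90.3 (0.98 ± 0.33 in both) and HSP90.2 (0.81 ± 0.46 and 1.11 ± 0.46) were alike, and HSP90.1 had 0.38 ± 0.44 and 0.54 ± 0.44. HSP101 stood at 0.02 ± 0.21 in the dark and 0.31 ± 0.20 after light, near the average gene. For the summed copies the ratio was -0.39 ± 0.44 in the dark and 0.41 ± 0.44 after light over the 3 HSC70 genes, and 0.90 ± 0.39 and 1.03 ± 0.39 over HSP90.2, HSP90.3 and HSP90.4. The difference between genes in this ratio was not tested.

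**Figure D4:**
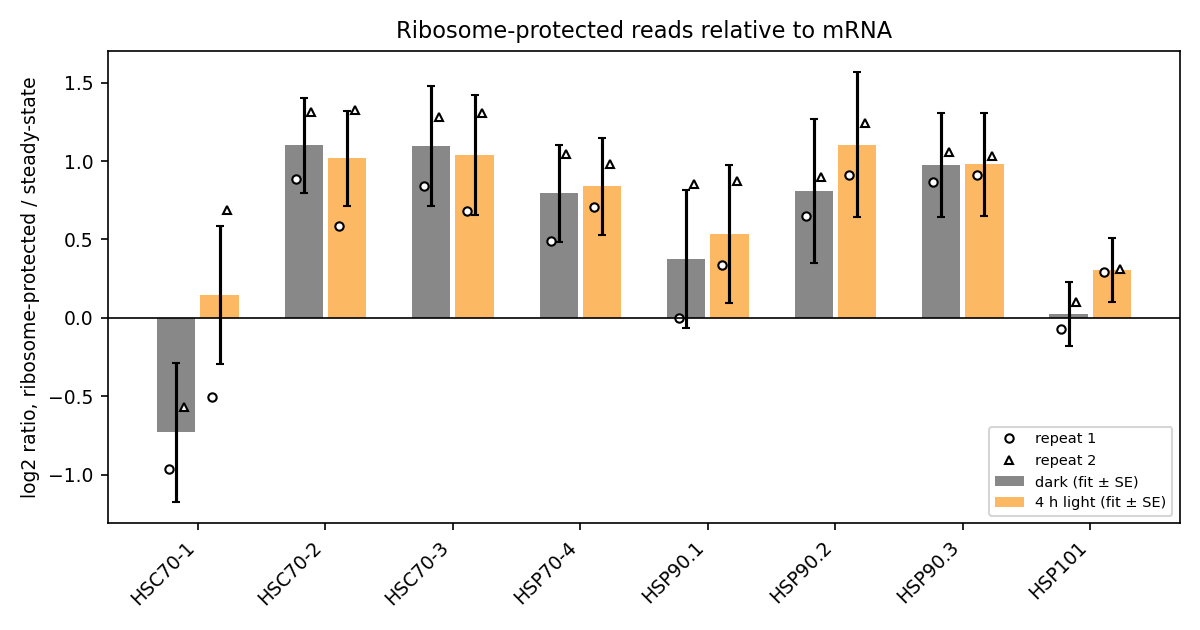
Log2 ratio of ribosome-protected to steady-state mRNA for each of the 8 genes in the dark (grey bars) and after 4 h of light (orange bars), with the standard error of the fit as error bars and the ratio within repeat 1 (circles) and repeat 2 (triangles). HSC70-1 has the lowest ratio in the dark (-0.73), and HSC70-2 and HSC70-3 the highest (1.10 and 1.09).

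Reads in the 5′ leaders were not used to choose the genes or in the main tests above, and entered only the alternative fit with untranslated regions added. Relative to the coding sequence of the same gene, the density of leader reads in mRNA ran from 0.369 (HSP90.1, light repeat 1) to 1.29 (HSP90.2, dark repeat 1), against medians of 0.499 to 0.534 over all genes with enough reads. In mRNA 7 of the 8 lay above the median of all genes in each dark library and 6 in each light library. In ribosome-protected libraries the leaders of the 8 held fewer reads per base than the coding sequences, as did those of most genes, and 4 to 6 of the 8 lay above the median of all genes in each of these libraries. The densities lay between 0.0482 and 0.377 in dark repeat 2 and between 0.0678 and 0.326 in light repeat 2, the deepest ribosome-protected libraries, against medians of 0.122 and 0.117 and upper quartiles of 0.248 and 0.233.

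HSP101 had the highest ribosome-protected leader density of the 8 in both of those libraries. Its leader is the longest in the gene models, at 222 bases. It held 13 reads in dark repeat 2, or 2.96% of the reads of the gene (95% Wilson interval 1.74 to 5.0%), and 66 reads in light repeat 2, or 2.57% (2.03 to 3.26%). The HSP70-4 leader held 30 reads (1.02%, 0.718 to 1.46%) and 519 reads (1.06%, 0.971 to 1.15%) in the same libraries, intervals that overlapped. In repeat 1 it held 6 reads in the dark (0.938%, 0.430 to 2.03%) and 12 after light (0.202%, 0.115 to 0.352%), intervals that did not overlap, so the repeats differed. In that light library the median leader density over all genes was also low, at 0.0300 against 0.0884 in its dark counterpart. In repeat 1 the HSP101 leader held 2 reads in each ribosome-protected library, too few to compare. HSP90.2 also passed the upper quartile in dark repeat 2 (0.286), and not in light repeat 2 (0.207). In mRNA its leader density was 0.90 to 1.29, above the upper quartile of all genes in each library. Intervals cover counting error only, and reads of 1 library are not replicates.

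The other chaperones and the heat response were described with 5 lists of companion genes, read against the same shares of all genes called in the light comparisons. Of 18 other HSP70, HSP90 and HSP100 proteins, 3 rose in mRNA and 0 fell (15 passed as higher with the block), the median being 1.198. All 3 are mitochondrial, namely HSP70-10 (1.91 ± 0.26, adjusted p = 0.0154), HSP90.6 (1.75 ± 0.25, 0.0175) and the HSP101 relative CLPB4 (1.15 ± 0.20, 0.0314), out of 4 mitochondrial genes listed. The 4 plastid members had the largest median, 2.02 (1.26 to 2.78), and 0 passed in edgeR, at adjusted p of 0.0534 (HSP90.5, 2.78 ± 0.59) to 0.103 (HSP70-6, 1.49 ± 0.41), while all 4 passed with the block and in DESeq2. The median of the 4 mitochondrial genes was 1.45. Of 6 further cytosolic genes 0 passed in edgeR (3 with the block). Their median was 0.51, with a range from -0.48 to 1.04. In ribosome-protected mRNA 8 of the 18 rose and 0 fell. These were all 4 plastid members (1.74 to 3.24), the same 3 mitochondrial genes and cytosolic HSP70-8 (1.23 ± 0.28, adjusted p = 0.0493). The 4 members of the endoplasmic reticulum had 0 calls in either kind of library and 4 with the block in each, and a median of 1.27 in mRNA.

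Among 19 co-chaperones, which hand clients on or drive the ATP cycle, 1 rose in mRNA, 0 fell and the median was 0.34 (7 higher with the block). It was HOP3, an HSP70-HSP90 adaptor known to be induced by heat, at 2.45 ± 0.30 (adjusted p = 0.0116). HOP3 levels, in scaled CPM per kilobase like the other levels, were 11.96 and 12.6 in the dark and 74.3 and 59.3 after light. In ribosome-protected mRNA HOP3 (2.52 ± 0.30), SGT1A (1.04 ± 0.20) and the immunophilin ROF2 (2.71 ± 0.61) rose.

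Among 21 heat shock factors, the transcription factors of the response, 0 of 19 tested passed in mRNA. Their median was 0.04, close to that of all genes. DESeq2 called 1. With the block, which called 14.2% of all genes lower, 6 were higher and 2 lower. HSFA9 and HSFB1 are listed with 0 CDS reads in every library and were not tested. Whether such a 0 stands for a gene without reads or for one whose reads were not entered cannot be told from the tables. The most abundant, HSFA7A, had -0.16 ± 0.53 (adjusted p = 0.933). Of the factors that passed with the block, 3 are named here after their values were seen, the pair that was lower and HSFA2, known as strongly induced by heat. HSFA7B, the 1 gene that DESeq2 called, was lower, with levels of 3.63 and 2.24 in the dark and 0.448 and 0.393 after light. The difference was -2.79 ± 0.60 (adjusted p = 0.0532, 5.30e-04 with the block, 0.00184 in DESeq2). HSFA1E had 9.15 and 7.93, then 4.58 and 4.06, a difference of -0.98 ± 0.33 (adjusted p = 0.175; 0.00556 with the block). HSFA2 had 0.772 and 1.58 in the dark and 3.06 and 7.30 after light, a difference of 2.13 ± 0.73 (adjusted p = 0.178; 0.0023 with the block; 0.0585 in DESeq2). None of the 3 had overlapping groups, a trait whose share over all genes was not counted.

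Of 14 small heat shock proteins, which hold unfolded proteins until HSP70 and HSP101 act on them, 3 rose, 0 fell and all 14 had values above 0, the median being 1.56 (11 higher with the block). They were AT1G52560 (2.51 ± 0.41, adjusted p = 0.0248), HSP17.4 (1.54 ± 0.27, 0.0298) and AT1G59860 (1.95 ± 0.40, 0.0467). AT1G52560 was scarce, with levels of 0.340 and 0.408 in the dark and 2.31 and 2.01 after light. Of 5 other heat-induced genes 0 passed in mRNA in edgeR, while DESeq2 called 1 and the fit with the block 5. MBF1C, a heat-induced coactivator, had 1.38 ± 0.32 (adjusted p = 0.066) in mRNA and rose by 1.44 ± 0.32 (adjusted p = 0.0489) in ribosome-protected mRNA. In the 500 bases before the start codon the heat shock element described above was found in 3 of the 18 other chaperone genes, 1 of 19 co-chaperones, 5 of 21 heat shock factors, 4 of 14 small heat shock proteins and 1 of 5 other heat-induced genes.

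**Figure D5:**
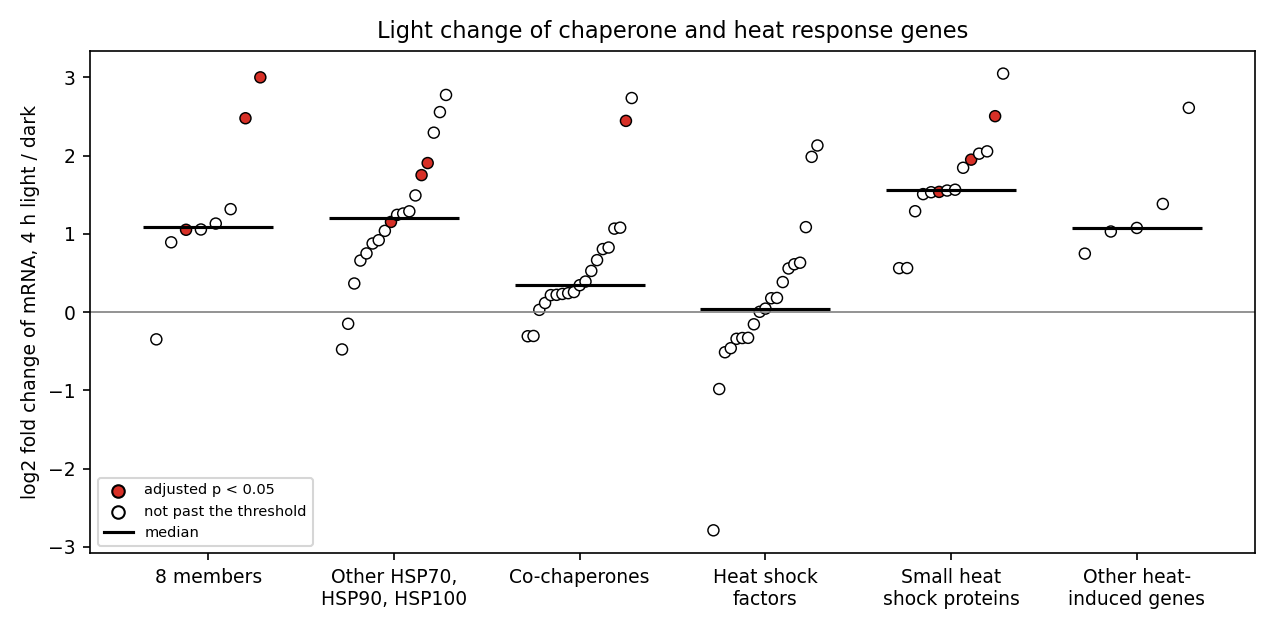
Log2 fold change of steady-state mRNA after 4 h of light for the 8 chaperone genes and the tested genes of 5 companion lists, 1 point per gene, with a horizontal line at each list's median; red points have an edgeR adjusted p under 0.05. The medians are 1.09 for the 8 genes, 1.198 for the other chaperones, 0.34 for co-chaperones, 0.04 for heat shock factors, 1.56 for small heat shock proteins and 1.08 for the other heat-induced genes.

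Likeness of patterns was measured as the root mean square difference of log2 values, centred per gene, over the 8 libraries, among 9904 genes of at least median abundance. The genes most like HSP70-4 were nuclear genes of the photosystems, PSBR (0.159), PSAD-1 (0.217) and PSAL (0.229), with mRNA changes of 2.85, 2.77 and 2.98. Those most like HSC70-1 were eEF-1Bb1 (0.172), a subunit of a translation elongation factor, AT2G15240 (0.200) and ERF1-2 (0.210), a translation release factor, with mRNA changes of -0.67, -0.58 and -0.39 and ribosome-protected changes of 0.32, 0.26 and 0.08. HSC70-3 was most like CNX1 (0.114) and HSP90.3 most like CRT1a (0.110), which encode the lectin chaperones calnexin and calreticulin of the endoplasmic reticulum. HSC70-2 was most like the expansin EXPA6 (0.163), HSP90.1 most like AT1G66130 (0.204), HSP90.2 most like AT4G12060 (0.104) and HSP101 most like ABA4 (0.0976). Between the 8 themselves, HSP90.2 and HSP90.3, which share much of their sequence, differed by 0.180 and HSC70-3 and HSP90.3, which do not, by 0.183. HSP70-4 and HSP90.1 differed by 0.436, and HSC70-1 differed from each of the other 7 by 0.671 to 1.61. These are descriptions over 8 libraries that share depth and preparation, and the light change makes up much of each pattern.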

How the data were processed

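The authors deposited 2 tables, 1 per repeat, with 1 gene model per locus. Per the file headers, the authors gave whole-number read counts for the 5′ leader, the coding sequence and the 3′ untranslated region of each gene, with region lengths, and these counts were not normalized. The deposited tables also hold RPKM values that, per the file headers, the authors computed per region. RPKM of coding sequences served only to check the counts, and 16 columns of RPKM were not used. The submitters' processing notes name the build TAIR 10. No source used here states the aligner, the use of strand or the handling of reads with several matches.

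Tests used CDS counts of 27415 genes in all 8 libraries. After filterByExpr 19823 genes remained, with TMM scaling (factors 0.824 to 1.26), and were fitted with 1 mean per group by the quasi-likelihood method of edgeR 4.0.16 (R 4.3.3). P-values are two-sided, adjusted over these genes after Benjamini and Hochberg, with 0.05 as threshold. An exact permutation test on 2 against 2 libraries cannot go below p = 0.333 and was not run. The fitting code was checked on simulated data that held no repeat effect and less spread than these libraries. That check covers the code and not the error rates of the fit on these data. Same-numbered libraries deviated together from their group means (correlations of 0.575 to 0.806 over 19823 genes for the 6 pairs of groups), the numbers coming from the labels and the 2 tables, so the fit with the repeat as a block is printed where it changes a call. That fit lowers the estimated coefficient of variation from 0.391 to 0.17, and the labels do not say what a repeat shares. Alternatives were DESeq2 1.42.0, RLE size factors, no low-count filter, untranslated regions added, organelle genes left out, copies summed, 1 kind of library alone and each library left out. Levels are TMM-scaled CPM of coding sequences per kilobase.

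The 8 genes and the companion lists were chosen with earlier results of these data known. From each companion list the text names up to 3 genes called in mRNA, by smallest adjusted p, or else the most abundant, and further genes called in ribosome-protected mRNA were named after their values were seen. Sequences come from the RefSeq genome TAIR10.1. Its coding lengths equalled the deposited ones at 25851 of 26709 loci (96.8%) and at 7 of the 8 genes, HSP90.1 having 2103 against 2118 bases, so its distances from the start codon hold for the RefSeq model.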

Additional observations from a re-analysis of the deposited data

How the results depend on the processing

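With the replicate block the number of the 8 genes called went from 3 to 7 in each light comparison, and from 0 to 5 for the ratio of ribosome-protected to steady-state reads in the dark, and to 5 in that after light. DESeq2 called 4 in mRNA, 5 in ribosome-protected mRNA, and 4 (dark) and 3 (light) for that ratio. With the 4 mRNA libraries fitted alone 0 were called, as were 0 of all 19472 genes tested in that fit, and with the 4 ribosome-protected ones 2, with 614 of 17348 genes in all. Leaving out each library in turn gave 0 to 1 calls in mRNA and 0 to 3 in ribosome-protected mRNA, and 0 in the other comparisons. Calls over all genes fell as well, to 3 to 661 of 947 in mRNA and 173 to 1119 of 1355 in ribosome-protected mRNA, and to 0 to 262 for the ratios, so these counts are not particular to the 8 genes. RLE size factors and no low-count filter gave 2 in mRNA, where HSP101 was lost. Adding untranslated regions, leaving out organelle genes and summing copies gave 3 and 3. No value of a gene changed sign while called, and the interaction gave 0 calls under every alternative that was run. The cause of the differences between settings was not tested, except that a left-out library removes a residual degree of freedom from the 4 of the fit. Depth limits the ribosome-protected values of repeat 1 most, where HSP101 had 112 and 273 CDS reads and most leaders held fewer than 10.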
